A study of Mus musculus with 59 samples.

Results

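Granulocyte–monocyte progenitors (GMPs) sorted from mouse bone marrow 3 weeks post induction (w.p.i.) of Daxx deletion were compared with GMPs of wild-type (WT) mice. The libraries were chosen by their column names in the table of GMPs at 3 w.p.i., and all its genes were used: 3 Daxx-KO, 3 WT and 2 double-KO (DKO) libraries of the 59 samples of the series, with 51810 genes listed, 24541 with a read in any of the 8 libraries and 13714 tested. Daxx-KO mice were Daxx F/F and WT mice Daxx +/+, and both carried 1 copy of Mx1Cre. The floxed Daxx line was C57BL/6N and the Mx1Cre line C57BL/6J, and the part of substrain in the differences was not tested. DKO mice were in addition homozygous for a floxed Pu.1 allele, from a C57BL/6J line. Mx1Cre is driven by an interferon-responsive promoter and was induced with pI:pC, a double-stranded RNA mimic. The controls had therefore been given the inducer and carried the recombinase as well, and any cell in which Cre did not act keeps its allele. GMPs had been sorted by surface markers as lineage-negative, c-Kit-positive, Sca-1-negative, CD16/32-positive and CD34-positive cells. The GMP columns carry animal numbers that match KLS samples of known genotype (KLS, c-Kit-positive, lineage-negative, Sca-1-positive, the population that holds the stem cells), and Lo80, whose number no label gives, was placed in WT because its column in the KLS repeat table ends in a control tag. The study counts n in mice, so each numbered column was taken as 1 animal.

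DAXX is a chaperone that hands the histone variant H3.3 to chromatin, where it works with ATRX and with the H3K9 methylation machinery to keep repeats and some genes silent. GMPs are committed progenitors that give rise to neutrophils and monocytes. They are loaded with the messages of primary granule proteins, such as Mpo and Elane, and they depend on PU.1 and C/EBP factors. B-lymphoid genes, such as Dntt, Il7r, Ebf1 and the surrogate light chain genes Vpreb1 and Igll1, are normally switched on in lymphoid-primed progenitors and then in pro-B cells. The comparison asks which genes of a committed myeloid progenitor differ soon after Daxx is lost.

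Libraries held between 11795984 and 13670666 gene reads, so depth was even. Values are normalized counts, gene reads divided by 1 size factor per library. Of the genes listed, 27269 stood at 0 in every library, among them all 37 mitochondrial genes, Rag1, Rag2 and Asf1a, so a 0 in every library is given here only as listed at 0. Pearson's r across tested genes, which share depth and are not independent, was 0.948 to 0.978 within Daxx-KO or within WT, 0.927 between the DKO libraries, and 0.947 to 0.964 between Daxx-KO and WT. The first principal component of the 500 most variable genes carried 38.7% of the variance and set every Daxx-KO library (scores above 0) apart from every WT library (scores below 0). Within their genotypes Daxx-KO Lo23 and WT Lo53 stood apart. Lo23 held 213081 late neutrophil and 9249 B-lineage marker counts, against 22383 to 22986 and 500.1 to 845.7 in the other Daxx-KO libraries. Lo53 held 502.2 B-lineage counts against 47.8 and 58.8 in the other WT libraries, and 35987 late neutrophil counts against 146220 and 181899. Lists whose counts moved most without either library are given with and without it. The sum of the 10 GMP markers was 95029 to 187288 in Daxx-KO and 131402 to 205925 in WT, against 811.8 to 1852 for the 4 stem cell markers over both genotypes. The groups overlapped, and every library held the messages that define the labelled cell type.

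Daxx was the first check. Its normalized count was 83, 55.1 and 78.1 in the Daxx-KO libraries and 62.9 and 78.9 in the DKO libraries, where WT libraries held 642, 622.2 and 687.7. Daxx (chr17:33909414-33915590, plus strand, mm10) thus stood at 72.1 ± 14.9 (SD, n = 3) against 650.6 ± 33.6, 9.03-fold lower, with no overlap (log2 fold change −3.18 ± 0.24 SE, limma adjusted p = 0.000763). Spi1, which encodes PU.1, was at 3590, 3958 and 3532 in Daxx-KO against 4384, 3348 and 4604 in WT, so the ranges overlapped. In bulk libraries, fewer cells of a type and less RNA per cell cannot be told apart. The 11 tested genes next to Daxx had a median log2 fold change of −0.00 and none passed the test.

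At an adjusted p under 0.05, 13 genes were called (0.0948% of those tested), 9 higher (0.0656%) and 4 lower (0.0292%) in Daxx-KO. At an unadjusted p under 0.05 there were 433 genes (3.16%) by limma, 441 (3.22%) by edgeR and 485 (3.54%) by DESeq2. Without overlap between the 3 Daxx-KO and the 3 WT libraries, 637 genes (4.64%) were higher and 474 (3.46%) lower, 1111 (8.1%) in all, and the median log2 fold change over all genes tested was −0.01. The count depended on the tool. The quasi-likelihood test of edgeR on recovered reads called 11 genes (0.0802%), 7 of them higher (0.051%), and DESeq2 called 80 (0.583%), which included all 13. It also rested on each library. Without Daxx-KO Lo22 or Lo23, 5 genes were called each time, Bcl2l11, Daxx, Gm26573, Ryr2 and 1700030N03Rik. Without Daxx-KO Lo24, 1700030N03Rik gave way to Zfp951. Without WT Lo80 only the first 4 were called, without WT Lo52 9 genes and without WT Lo53 11. Below, "rose" and "fell" are used of the 13 genes called by limma, and other members are given by their values.

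**Figure D1:**
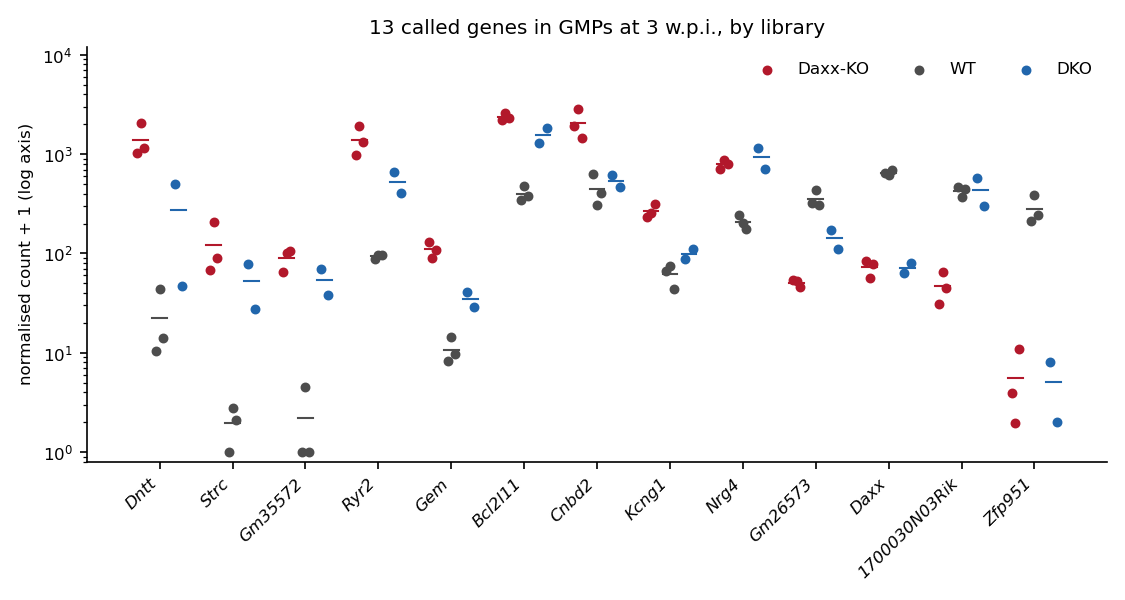
Normalized counts (log scale, value + 1) of the 13 called genes, one point per library, coloured by genotype, with a bar at each genotype mean. For each gene the 3 Daxx-KO points lie wholly above or wholly below the 3 WT points, and the 2 DKO points lie with Daxx-KO for Zfp951 and Daxx and near WT for 1700030N03Rik.

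**Figure D2:**
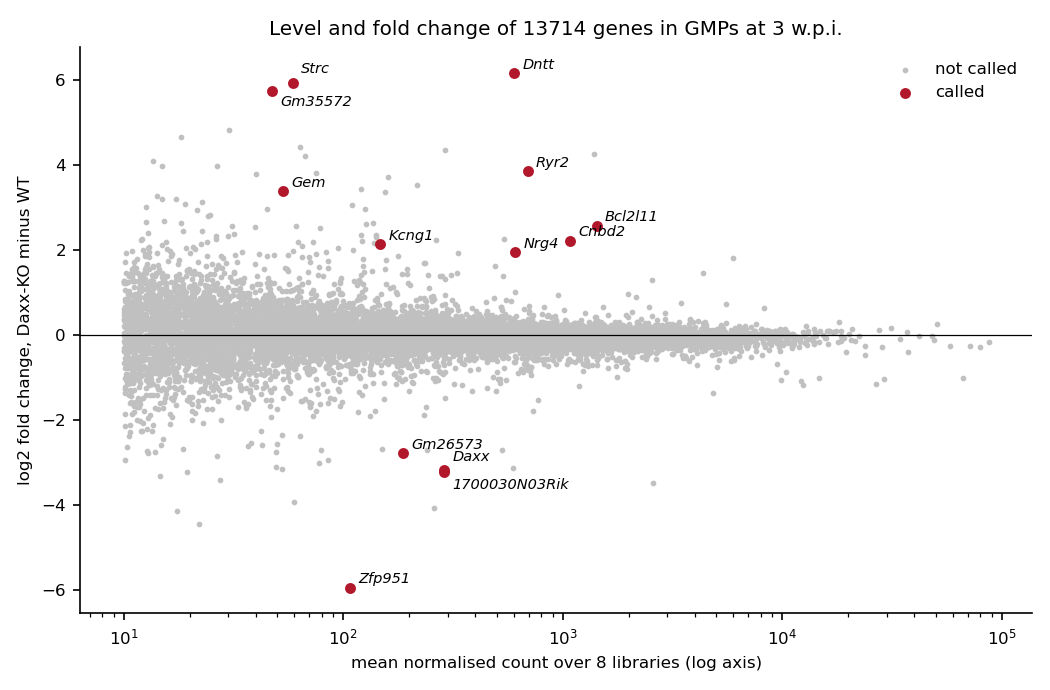
Mean normalized count over the 8 libraries (log axis) against the log2 fold change of Daxx-KO over WT for the 13714 tested genes, with the 13 called genes labelled. Called genes span levels from under 100 to over 1000, and the highest point is Dntt at 6.17.

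Bcl2l11 and Ryr2 were, with Daxx and Gm26573, the genes called under every alternative. Bcl2l11 (chr2:128126038-128162547, plus strand) encodes BIM, a BH3-only protein that promotes apoptosis and sets how many blood cells survive. It measured 2193, 2578 and 2328 in Daxx-KO against 342.8, 476.6 and 378.7 in WT, so the lowest Daxx-KO library lay far above the highest WT library. It rose 5.92-fold (log2 fold change 2.57 ± 0.20 SE, adjusted p = 0.000763). Acoxl, the neighbouring gene 2165 bases away, measured 66.4, 58.0 and 91.9 against 29.1, 30.9 and 6.53, without overlap but without passing the test (1.89 ± 0.56, adjusted p = 0.900). Ryr2 (chr13:11553102-12106945, minus strand), a calcium release channel of the endoplasmic reticulum best known in heart muscle, measured 984.4, 1907 and 1312 in Daxx-KO against 86.2, 96.2 and 94.7 in WT. It rose 15.2-fold (3.86 ± 0.27, adjusted p = 0.000763). The WT libraries lay close together for Ryr2, while Daxx-KO Lo23 held far more than Lo22. Ryr2 overlaps 3 annotated genes, so its reads may be shared with them.

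Dntt had the largest log2 fold change of the called genes. It encodes terminal deoxynucleotidyl transferase, which adds untemplated nucleotides at the joints of rearranging immunoglobulin and T cell receptor genes. Dntt (chr19:41029275-41059525, plus strand) measured 1020, 2042 and 1140 in Daxx-KO against 9.35, 42.4 and 13.1 in WT. Every Daxx-KO library lay far above WT Lo53, the highest WT library, and the means differed 64.9-fold (6.17 ± 0.80, adjusted p = 0.0229). Blnk, the next gene along the chromosome 34740 bases away, measured 75.2, 594 and 76.1 against 27.0, 51.2 and 18.5 and did not pass the test (adjusted p = 1.00). In 6 of 14 alternatives Dntt was no longer called, edgeR among them (adjusted p = 0.0689, range over the alternatives 9.22e-07 to 0.134).

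The other genes of early lymphoid and B-cell commitment were looked at as a list of 28. Rag1 and Rag2 were listed at 0 in every library, and 26 members had reads. Of these 26, 16 (61.5%) were higher in every Daxx-KO than in every WT library and 23 had the higher mean in Daxx-KO. Over the 24541 genes with a read the corresponding share was 3.72%, and 3.08% were lower in this sense. The mean filter kept 24 members, of which 7 had a WT mean under 10 and so passed only through the Daxx-KO or DKO libraries. Only Dntt was called, and the median log2 fold change of the 24 was 1.61 against −0.01 over all genes tested. Of the members named here, DESeq2 called Dntt and Il7r.

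Among the receptors, Il7r, the IL-7 receptor alpha chain that B-cell progenitors need to grow, measured 54.7, 212.9 and 81.0 in Daxx-KO against 3.12, 10.6 and 2.18 in WT (4.22 ± 0.99, adjusted p = 0.467). Flt3, a cytokine receptor of lymphoid-primed and dendritic progenitors that was listed with the dendritic genes, measured 933.6, 755.6 and 1086 against 337.6, 714.9 and 174.1 (1.39 ± 0.45, adjusted p = 1.00). Every Daxx-KO library lay above every WT library in both genes, though for Flt3 the nearest libraries, Lo23 and Lo53, lay close. Among the transcription factors, Ebf1, which commits cells to the B lineage, measured 605.5, 7232 and 316.3 in Daxx-KO against 22.9, 368 and 21.8 in WT. Pax5, which holds that commitment, measured 137.7, 1298 and 83 against 7.27, 99.7 and 1.09. Both genes overlapped, because WT Lo53 exceeded Daxx-KO Lo24, and both had their highest value in Daxx-KO Lo23. Pou2af1, a coactivator of octamer-dependent B-cell genes, measured 40.04, 219.5 and 26.7 against 0, 23.8 and 0, without overlap. Satb1, a chromatin organizer used in lymphoid progenitors, measured 1613, 2144 and 1828 against 1382, 1382 and 1244, a smaller difference (0.47 ± 0.17). Ikzf1, which encodes Ikaros and is also expressed in myeloid progenitors, had a log2 fold change of −0.06 ± 0.22.

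The genes of the pre-B receptor and its signalling chain were low in WT and uneven in Daxx-KO. Vpreb1, a surrogate light chain gene, measured 16.6, 106.5 and 28.7 in Daxx-KO against 3.12, 8.83 and 9.79 in WT. Igll1, its partner, measured 20.5, 229.1 and 20.8 against 2.08, 8.83 and 6.53. Cd79a, a signalling chain of the B-cell receptor, measured 44.9, 236.7 and 37.6 against 11.4, 16.8 and 19.6. In all of these Lo23 was several times the other Daxx-KO libraries, and the lowest Daxx-KO library still exceeded every WT library. Of the 24, 3 had a log2 fold change below 0: Ikzf1 above, Ikzf3 (−0.74 ± 0.46), a relative of Ikaros in lymphoid cells, whose groups overlapped, and Cd22, which was lower without overlap. Cd22, an inhibitory receptor of B cells, was at 6.84, 1.90 and 4.94 in Daxx-KO against 13.5, 39.7 and 8.71 in WT.

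Dntt and some surrogate light chain and receptor genes are taken as examples of the genes that differed without overlap. The sequence before the start of each is shown to compare short letter patterns. Each is the 250 bases upstream of the RefSeq start on GRCm38.p6, written 5′ to 3′ on the strand of the gene: Dntt at chr19:41029025-41029274 (plus), Vpreb1 at chr16:16869256-16869505 (minus), Cd79a at chr7:24897247-24897496 (plus) and Igll1 at chr16:16863986-16864235 (minus). Capitals mark the letters GAGGAA, a core of PU.1 sites, or its reverse complement TTCCTC, and the letters CCCNNGGG, the paired half-sites that EBF1 can bind.
Dntt: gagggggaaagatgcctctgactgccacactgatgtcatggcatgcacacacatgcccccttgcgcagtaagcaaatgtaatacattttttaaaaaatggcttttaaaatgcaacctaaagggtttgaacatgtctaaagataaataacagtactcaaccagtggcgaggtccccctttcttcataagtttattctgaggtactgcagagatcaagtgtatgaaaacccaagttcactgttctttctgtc
Vpreb1: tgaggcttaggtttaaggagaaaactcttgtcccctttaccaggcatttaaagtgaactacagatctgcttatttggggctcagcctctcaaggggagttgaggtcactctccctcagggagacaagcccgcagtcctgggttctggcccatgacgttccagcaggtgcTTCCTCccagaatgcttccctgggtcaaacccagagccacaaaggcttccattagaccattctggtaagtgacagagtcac
Cd79a: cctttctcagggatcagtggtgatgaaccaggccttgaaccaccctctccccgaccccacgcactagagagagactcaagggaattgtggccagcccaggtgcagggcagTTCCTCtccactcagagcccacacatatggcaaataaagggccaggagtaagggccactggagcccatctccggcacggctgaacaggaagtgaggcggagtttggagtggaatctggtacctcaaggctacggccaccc
Igll1: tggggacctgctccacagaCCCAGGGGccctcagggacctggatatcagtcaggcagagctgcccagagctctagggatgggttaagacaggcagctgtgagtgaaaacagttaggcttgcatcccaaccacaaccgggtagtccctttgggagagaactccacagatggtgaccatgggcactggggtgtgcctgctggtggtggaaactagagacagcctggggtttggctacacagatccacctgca
Searched on both strands, the GAGGAA letters stood in the Vpreb1 and Cd79a windows, the CCCNNGGG letters in that of Igll1, and neither in that of Dntt. Among genes named above but not shown, some Satb1 windows held GAGGAA, and those of Il7r and Pou2af1 held neither pattern. Of the 14 tested early lymphoid genes that did not overlap upwards, 11 had a RefSeq promoter, 4 of them with GAGGAA and 2 with CCCNNGGG. Among the 13 called genes, 9 had one, 2 with GAGGAA and 1 with CCCNNGGG. Over all 32851 upstream windows of this length, 7639 (23.3%) held GAGGAA and 3882 (11.8%) held CCCNNGGG. These shares are of single windows, whereas a gene was counted if any of its windows matched. The 11 genes had 16 windows and the 9 had 14, so the shares are not directly comparable. A match is only a run of letters and says nothing of binding.

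**Figure D3:**
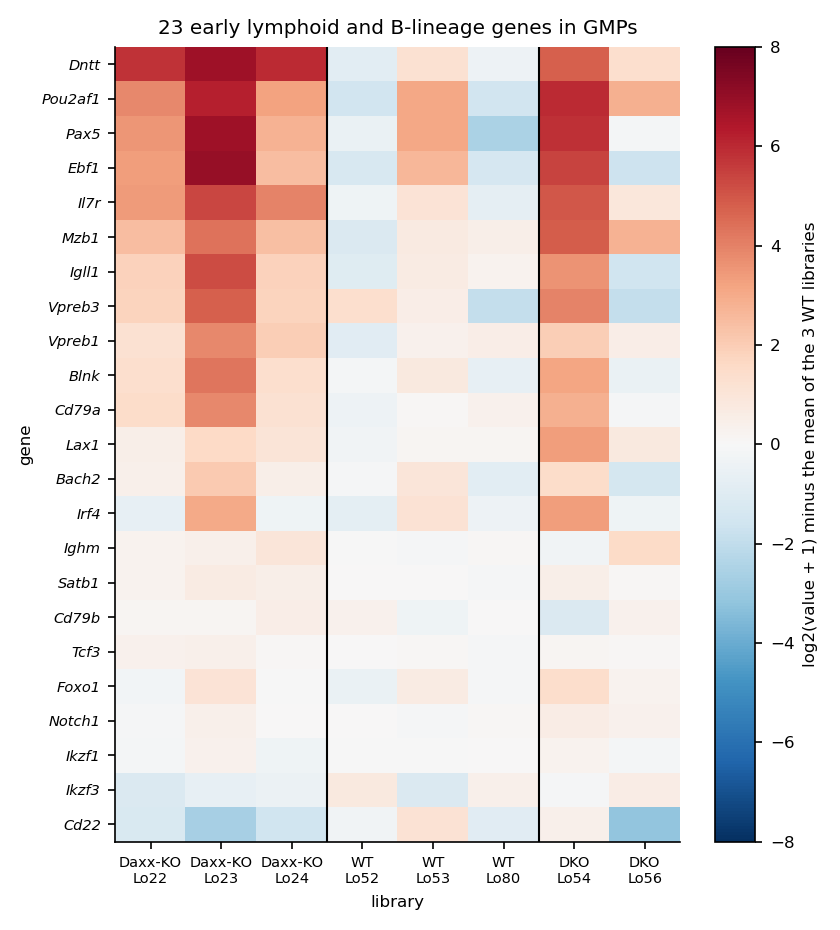
Tested early lymphoid and B-cell genes that can be named here, as the difference of each library's log2(value + 1) from the WT mean of that gene. Daxx-KO Lo23 is highest for most rows, and DKO Lo54 is high where DKO Lo56 mostly lies near WT.

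Beside these values stand the marker sums of cell types that a GMP gate could also hold. The 6 B-lineage markers summed to 845.7, 9249 and 500.1 in Daxx-KO libraries, against 47.8, 502.2 and 58.8 for WT and 3437 and 55.2 for DKO. No B-lineage marker was at 0 in a Daxx-KO library, and 4 of the 6 did not overlap upwards, where 4.64% of all genes tested did so. The T and NK markers summed to 25.7 to 37.6 in Daxx-KO and 7.27 to 27.4 in WT, with Cd3e at 0 in all 6 libraries. Siglech, the plasmacytoid dendritic marker, was at 6.84 to 18.1 in Daxx-KO and 3.26 to 21.2 in WT. The T and NK list of 7 tested genes had no call, 1 without overlap in each direction (14.3%) and a median of −0.31. Over all genes tested, 4.64% were higher and 3.46% lower without overlap. Whether the early lymphoid counts came from lymphoid cells in the gate or from GMPs was not tested. Without Lo23 the median log2 fold change of the 24 genes was 1.04 and without Lo53 1.86, and over all the leave-outs 14 to 17 genes did not overlap upwards. Over all genes tested, 14.4% did so upwards without Lo23 and 15% without Lo53.

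**Figure D4:**
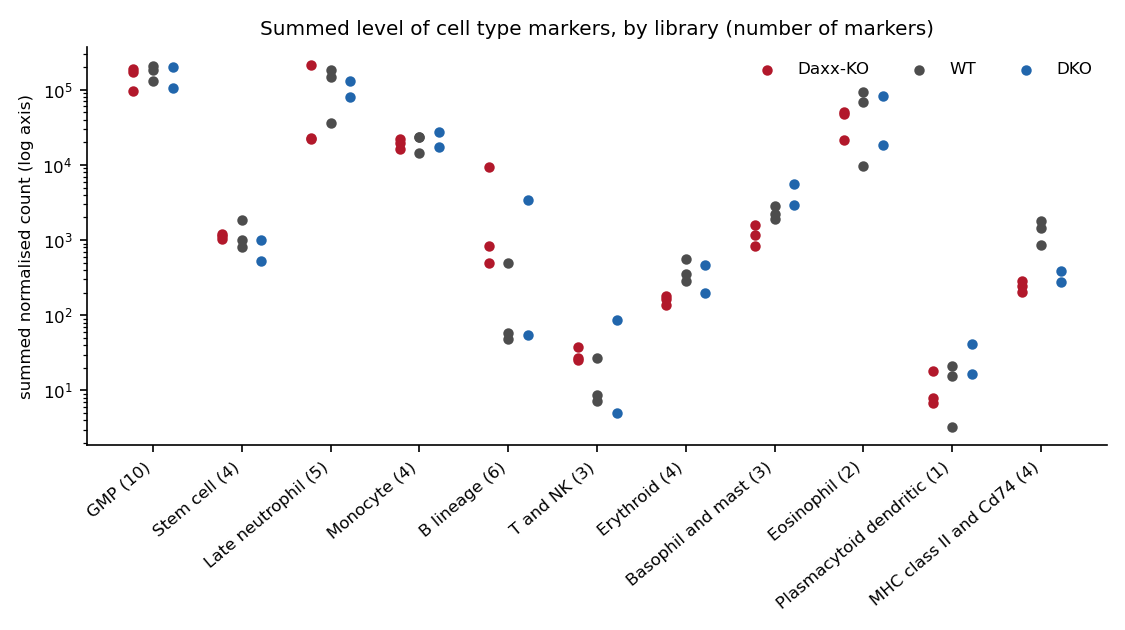
Summed normalized counts (log axis) of marker lists for the cell types a GMP gate could hold, one point per library, coloured by genotype. The MHC class II and Cd74, erythroid, and basophil and mast sums are lower in every Daxx-KO than in every WT library, and GMP, stem cell and monocyte sums overlap.

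Cd74 and the MHC class II chains of the monocyte and dendritic list, picked here after their values were seen, were lower in every Daxx-KO than in every WT library, though none was called by limma. Cd74, the invariant chain that escorts MHC class II molecules, measured 31.2, 72.2 and 13.8 in Daxx-KO against 606.7, 736.1 and 375.4 in WT (−4.08 ± 0.73, adjusted p = 0.154). H2-Aa measured 20.5, 16.2 and 30.6 against 192.2, 317.7 and 84.9. H2-Ab1 measured 148.4, 130.2 and 234.2 against 548.5, 561.3 and 333. H2-Eb1 measured 4.88, 28.5 and 8.90 against 109.1, 154.5 and 65.3. Cd74 and these MHC class II chains summed to 205.1 to 287.6 in Daxx-KO and 858.5 to 1770 in WT, so the groups lay well apart. The DKO sums were 392.6 and 277.2. Ciita, the transactivator of MHC class II genes, overlapped, at 5.86, 2.85 and 2.97 against 13.5, 60.9 and 0. DESeq2 called all 4 lower, with an adjusted p of 1.59e-06 for Cd74 (1.59e-06 to 0.639 over the alternatives) and 0.00158 to 0.0034 for the others, and Cd74 was called by limma when the DKO libraries were left out of the fit. The whole monocyte and dendritic list had 19 tested members, none called, with 2 (10.5%) higher and 5 (26.3%) lower without overlap and a median of −0.25. Over all genes tested, 4.64% were higher and 3.46% lower without overlap. Among its abundant monocyte genes, F13a1 had a log2 fold change of −0.04 ± 0.29 and Ly6c2 one of −0.19 ± 0.36. The monocyte marker sum was 16517 to 22388 in Daxx-KO and 14580 to 23799 in WT.

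None of the messages that define a GMP passed the test. Mpo, the myeloperoxidase of primary granules, had a log2 fold change of −0.17 ± 0.43 and Elane, neutrophil elastase, one of −0.41 ± 0.38, and both overlapped. Of 18 GMP and primary granule genes none was called, and only Hdc, the enzyme that makes histamine, did not overlap, at 1738, 1662 and 1445 in Daxx-KO against 3077, 1997 and 2818 in WT (−0.68 ± 0.19). The median was −0.23. Of 17 myeloid transcription factors none was called either, with a median of −0.19. Late neutrophil genes varied more between libraries than between genotypes: all 20 had a log2 fold change below 0 (median −0.95), none was called and none was without overlap. Ngp, which is stored in secondary granules, measured 15250, 124824 and 13960 in Daxx-KO libraries, against 110764, 21960 and 90664 for WT. Without Lo23, 13 of the 20 were lower without overlap, where 15.1% of all genes tested were, and the median was −1.69. Without Lo53 it was 6 of the 20, where 14.1% of all genes were, and the median was −1.68. Without Lo22 the median was −0.41 and none was without overlap.

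Basophil, mast cell and erythroid genes mostly had log2 fold changes below 0. Of 10 eosinophil, basophil and mast cell genes none was called and 3 (30%) were lower without overlap, where 3.46% of all genes tested were. The median was −1.06. Ms4a2, a chain of the high-affinity IgE receptor, measured 238.3, 333.6 and 386.4 in Daxx-KO against 809.2, 1041 and 574.5 in WT (−1.32 ± 0.29, adjusted p = 0.380). Cpa3, a mast cell protease, measured 743.2, 575 and 942.9 against 1387, 1534 and 1114. Mcpt8, a basophil protease, measured 57.6, 199.6 and 236.2 against 292.9, 290.4 and 501.6. All of these lay lower in every Daxx-KO library, and Ms4a2 alone was called by DESeq2 (adjusted p = 0.00831). The sum of the 3 basophil and mast cell markers was 832 to 1610 in Daxx-KO and 1927 to 2861 in WT, and that of the 4 erythroid markers 135.7 to 179.9 and 283.3 to 553.7, and the part of such cells in these differences was not tested. Epx and Prg2, which encode eosinophil granule proteins, overlapped widely. Without Lo53, in which their sum was 9743 against 69269 and 94243 in the other WT libraries, 9 of the 10 list members were lower without overlap, against 14.1% of all genes tested. The list's median was −1.32 without Lo53 and −0.59 without Lo22. Of 17 megakaryocyte and erythroid genes none was called and 2 (11.8%) were lower without overlap, against 3.46% of all genes tested, with a median of −0.59. Without Lo53 these were 8 lower and a median of −0.30, and without Lo80, when 6.26% of all genes were lower without overlap, 5 and −0.96. DESeq2 called Hbb-bs lower (adjusted p = 0.00413). The genes without overlap were Gata1, the erythroid master factor, at 101.6, 108.3 and 120.6 against 240, 191.5 and 191.5, and Itga2b, an integrin of megakaryocytes, at 419.9, 448.6 and 507 against 945.3, 1003 and 555. Of 13 stem cell and multipotent progenitor genes none was called and only Vwf did not overlap, at 81.1, 61.8 and 120.6 against 178.7, 350.4 and 123, with a median of 0.05. Among 5 Hoxa and Meis genes Pbx3 alone did not overlap (−0.99 ± 0.36), and the median was 0.39.

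No interferon-response gene passed the test between the genotypes, both of which had received pI:pC. Of 28 tested members of a list of 32 none was called, with 1 (3.57%) higher and 2 (7.14%) lower without overlap and a median of −0.11. Over all genes tested these shares were 4.64% and 3.46%. Oas1a, which senses double-stranded RNA, measured 75.2, 63.7 and 81.0 in Daxx-KO against 109.1, 125.3 and 142.5 in WT. Oasl1 measured 50.8, 34.2 and 53.4 against 14.5, 32.7 and 22.9, so these relatives lay on opposite sides. Among 14 genes of RNA and DNA sensing none was called and the median was −0.19. Tlr3, the endosomal receptor for double-stranded RNA, measured 2.93, 2.85 and 0.99 against 41.6, 40.6 and 16.3 (−3.33 ± 0.66, adjusted p = 0.264), and it was the member that DESeq2 called (adjusted p = 0.00256). Irf3, Samhd1 and Tlr3 were the 3 members lower without overlap (21.4%, against 3.46% of all genes tested). Mavs, the mitochondrial adaptor of cytosolic RNA sensing, was the member that was higher without overlap, at 414.1, 330.7 and 417.1 against 272.2, 261.2 and 317.7. Inflammatory genes (17, median −0.16), p53 targets (16, median 0.05), cell-cycle genes (24, median −0.03) and ribosomal protein genes (77, median 0.01) had no call. Immediate-early genes had none either but a median of −0.69 over 15 members. Btg2, Junb and Klf2 were lower without overlap (20%, against 3.46% of all genes tested). Without Lo23, 9 of the 15 were lower without overlap, without Lo80 7 and without Lo53 6. Of all genes tested, 15.1%, 6.26% and 14.1% were lower without overlap in these leave-outs, in that order. DESeq2 called Fosb lower (adjusted p = 0.0159), at 2.93, 8.55 and 3.95 against 39.5, 199.5 and 4.35. Mki67, a marker of cycling cells, had a log2 fold change of −0.11 ± 0.36.

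Daxx was also the only called gene among 12 H3.3 and histone chaperone genes. Atrx, the partner of DAXX, had a log2 fold change of −0.06 ± 0.22, and the median was −0.03. The 21 tested genes of the silencing machinery had no call and a median of 0.02, with Setdb1 at 0.03 ± 0.17 and Dnmt1 at 0.02 ± 0.18. The 48 histone genes and 23 immunoglobulin genes tested had no call. Of 2 genes that the study linked to telomeric RNA, Mid1 had a log2 fold change of 0.77 ± 0.75 and Wls one of −0.15 ± 0.17. Glycolysis and gluconeogenesis genes had a median of −0.07 over 18 members. Their one member higher without overlap was Fbp1, the gluconeogenic fructose-bisphosphatase, at 593.8, 441.9 and 653.3 in Daxx-KO against 189.1, 105.9 and 154.5 in WT (1.92 ± 0.30, adjusted p = 0.0725), which was called when the DKO libraries were left out of the fit.

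Several called genes were near 0 in 1 genotype. Zfp951 (chr5:104813169-104860070, minus strand), a zinc-finger gene, measured 2.93, 0.95 and 9.88 in Daxx-KO against 208.8, 387.5 and 243.7 in WT. It fell 61.0-fold (−5.96 ± 0.75, adjusted p = 0.0189). Strc (chr2:121363728-121387168, minus strand), which encodes stereocilin of inner-ear hair bundles, measured 67.4, 208.1 and 89.0 in Daxx-KO against 0, 1.77 and 1.09 in WT. These were 378 reads against 3, a ratio of 123 with a 95% exact interval of 41.8 to 599 that covers counting error only (5.92 ± 0.66, adjusted p = 0.0113). Gm35572 (chr8:71752026-71781322, minus strand), a long non-coding RNA, measured 63.5, 99.8 and 105.8 against 0, 3.53 and 0, or 277 reads against 4, a ratio of 67.6 with an interval of 26.1 to 250 (5.74 ± 0.68, adjusted p = 0.0135). Both rose from levels at which WT libraries held a few reads at most. The call of Zfp951 was lost in 5 of 14 alternatives, that of Strc in 4 of 14 and that of Gm35572 in 5 of 13. Strc overlaps Ckmt1 and Gm35572 overlaps Gm29705, and reads of overlapping genes cannot be told apart where the counting did not use strand.

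A pair of long non-coding RNA genes fell. Gm26573 (chr4:146153456-147024959, minus strand) runs through a zinc-finger gene cluster and overlaps 26 annotated genes, so its reads may be shared with them. It measured 52.7, 52.3 and 44.5 in Daxx-KO against 321, 436.9 and 307.9 in WT, 7.13-fold lower (−2.80 ± 0.27, adjusted p = 0.00512). 1700030N03Rik (chr19:3053071-3197732, minus strand) overlaps 5 annotated genes, so its reads may be shared too. It measured 30.3, 64.6 and 43.5 against 469.6, 368 and 439.6, 9.23-fold lower (−3.24 ± 0.34, adjusted p = 0.00738). For either gene even the highest Daxx-KO library lay far below the lowest WT library. The call of 1700030N03Rik was lost in 2 of 14 alternatives. Among 326 zinc-finger genes tested, Zfp951 was the 1 call, 17 (5.21%) were higher and 16 (4.91%) lower without overlap, and the median was 0.03. Of 1541 genes with predicted (Gm or Rik) names, 1 rose and 2 fell, 69 (4.48%) were higher and 47 (3.05%) lower without overlap, and the median was 0.03. Both lists lay near the shares over all genes tested, 4.64% higher and 3.46% lower.

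The remaining called genes rose from levels with reads in every WT library, though for Gem these were few, 30 reads over the WT libraries. Nrg4 (chr9:55220222-55326844, minus strand), an EGF-family growth factor, measured 710.9, 879.1 and 801.6 in Daxx-KO against 243.1, 203.0 and 175.2 in WT (3.85-fold, 1.95 ± 0.23, adjusted p = 0.0135). It overlaps Fbxo22, whose log2 fold change was 0.79 without a call (adjusted p = 0.275). Gem (chr4:11704457-11714752, plus strand), a small GTPase that restrains voltage-gated calcium channels, measured 130.9, 89.3 and 107.7 against 7.27, 13.2 and 8.71 (11.2-fold, 3.38 ± 0.40, adjusted p = 0.0135). Kcng1 (chr2:168260117-168281736, minus strand), a modulatory potassium channel subunit, measured 229.5, 255.7 and 312.3 against 65.4, 73.3 and 42.4 (4.40-fold, 2.15 ± 0.29, adjusted p = 0.0319). Cnbd2 (chr2:156312299-156375638, plus strand), which encodes a cyclic-nucleotide-binding protein and overlaps 5 annotated genes, measured 1930, 2818 and 1445 against 631.6, 303.6 and 402.6 (4.63-fold, 2.22 ± 0.31, adjusted p = 0.037). In each of these the lowest Daxx-KO library was at least 2 times the highest WT library. The calls of Kcng1 and Cnbd2 were lost in 6 of 14 alternatives each, and those of Gem and Nrg4 in 5.

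The next genes by p, uncalled, with a mean of at least 50 and no overlap, besides Cd74, H2-Ab1, Fbp1 and Fbxo22 above, held both directions. DESeq2, with 80 calls, called each of them and those above (adjusted p 1.38e-06 for Slc15a2 to 0.00498 for Fbxo22), and edgeR called none. By limma, Atp1b3 was called with the DKO libraries left out, Camk2b without WT Lo52 and Ank2 without WT Lo53. Higher in every Daxx-KO library were Camk2b, a calcium-dependent kinase subunit (1.82, adjusted p = 0.0757), Atp1b3, a sodium pump subunit (1.29, adjusted p = 0.087), Ank2, an ankyrin adaptor (1.39, adjusted p = 0.0908), and Slc15a2, a peptide transporter (2.96, adjusted p = 0.128). Cdk5rap1 (2.26), Erc2 (1.17), Tmem108 (1.54), Gm7967 (2.04), Ntng1 (2.57) and Fgf13 (2.00) lay on the same side with adjusted p from 0.154 to 0.264. Lower in every Daxx-KO library were Gm13212 (−2.37, adjusted p = 0.124), Afdn, a junction adaptor (−1.51, adjusted p = 0.154), and Clec2d, a C-type lectin (−2.71, adjusted p = 0.191).

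Values of the called genes in other cells of the series stand beside these for comparison, each from its own table or contrast, and differences between the sets were not tested. DKO GMPs were measured against the same WT libraries, so the contrasts are not independent. In DKO minus WT, 40 genes were called (0.292%), and 7 of the 13 were among them. Dntt measured 504.2 and 46.4 in the DKO libraries, 1700030N03Rik measured 579.3 and 298.9, and Cnbd2 measured 620.9 and 461.6, and none of these was called (log2 fold change 3.07, −0.03 and 0.33). Ryr2 (657.4 and 400.4), Bcl2l11 (1281 and 1847), Nrg4 (1150 and 707.2) and Strc (77.1 and 26.6) lay above the WT libraries in both. The early lymphoid list had 8 of 24 members higher without overlap in the DKO contrast, with a median of 1.133, where 10.1% of all genes tested were higher without overlap. Ebf1 stood at 2483 in DKO Lo54 and 17.8 in Lo56, so these libraries lay far apart.

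KLS cells of the same time point came from animals of the same numbers. Their fit called 39 of 15200 genes (0.257%), and 7 of the 13 were among these: Daxx, Gm26573, Strc, Gm35572, Zfp951, Dntt and Kcng1. Dntt measured 10360, 18887 and 6767 in Daxx-KO KLS cells and 1761, 2314 and 1409 in WT KLS cells (2.62, adjusted p = 0.0294), so its WT level was already high in that population. The early lymphoid list had 14 of 26 tested members higher without overlap (53.8%), where 9.07% of all genes tested were, with a median of 2.71. Ebf1 was highest in Lo23 there too, at 23895. Bcl2l11 had a log2 fold change of 1.20 (adjusted p = 0.306) and Ryr2 one of 1.21 (adjusted p = 0.0621) in KLS cells.

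GMPs without a time point on the label were compared as 2 Daxx-KO against 2 WT libraries, a set in which 33% of 12744 tested genes were called and 33.1% were higher and 34.1% lower without overlap. Their titles do not say whether they came from the transplanted mice that the paper also sequenced. The paper's other Daxx GMP samples, from pI:pC-treated mice, carry a time on the label, so this set may be the transplanted one. Depth was uneven in this set, at 3388906 and 17307510 gene reads in the Daxx-KO libraries and 4938629 and 7067939 in the WT libraries. Of the 12 called genes tested there, 8 were called in the same direction and Cnbd2 in the other (−0.80). Nrg4 had a log2 fold change of 3.89 and Strc one of 9.16, both called. Bcl2l11 had one of 0.09 (adjusted p = 0.787). Dntt did not pass the filter and was at or below 10.1 in every untimed library. The early lymphoid list had 12 tested members and a median of −0.28, the monocyte and dendritic list had 14 of 16 called lower, and all 9 tested eosinophil, basophil and mast cell genes were called lower.

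**Figure D5:**
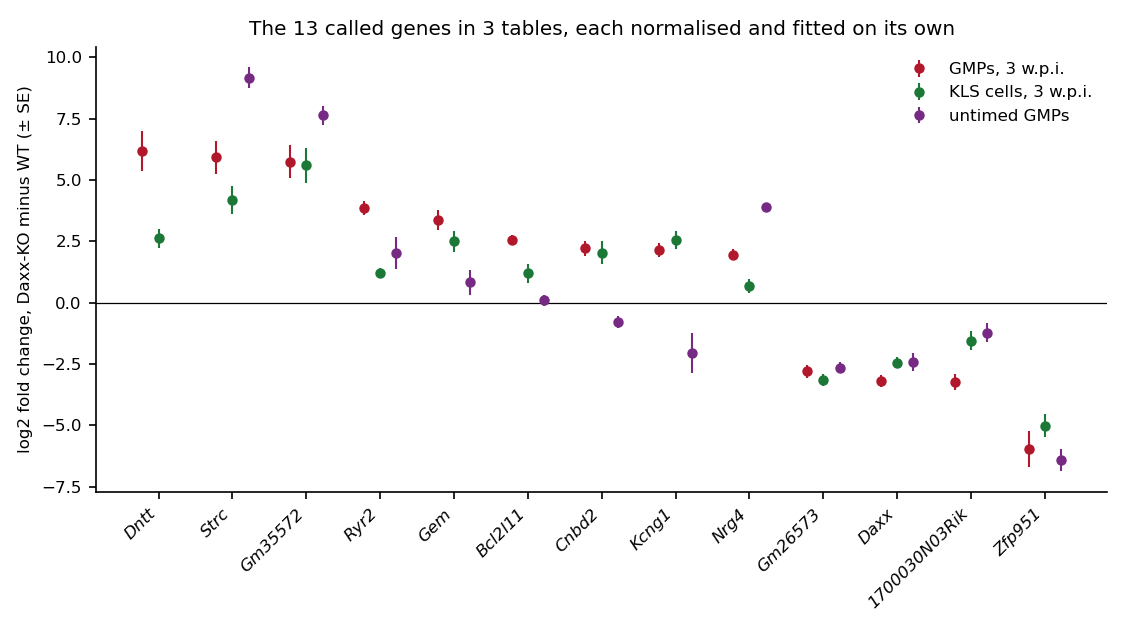
Log2 fold changes with standard errors of the 13 called genes, Daxx-KO over WT. The sets are GMPs at 3 w.p.i., KLS cells (also 3 w.p.i.) and untimed GMPs, each from its own fit. Daxx, Zfp951 and Gm26573 lie below 0 in all 3 sets, and Bcl2l11 lies near 0 in untimed GMPs.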

How the data were processed

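RNA-seq was made from sorted mouse bone marrow cells. The submitters' processing notes list CASAVA 1.8.4, cutadapt 1.13, STAR 2.5.3 and DESeq2 1.16.1, on mm10 with GENCODE M14. The counter and its use of strand are not given in the sources used here, and the labels and methods name different library kits, so the kit is not settled. The signal values that the authors deposited are normalized counts, gene reads divided by a size factor. Divided by its step, each column gave whole reads (tolerance 0.01), so depth and the reads for edgeR 4.0.16 and DESeq2 1.42.0 could be recovered.

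The trended test of limma 3.58.1 (R 4.3.3) was run on log2(value + 1). Genes needed a mean of at least 10 across the 8 libraries, which entered 1 fit with 5 residual degrees of freedom. Fold changes on this scale understate those of low genes. Benjamini-Hochberg adjustment covered all tested genes, and a gene was called at an adjusted p under 0.05. The script was tested on simulated data. Fold values without "log2" are ratios of group means. Standard errors follow ± beside log2 fold changes.

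Samples were grouped by genotype labels. Members and gene lists were chosen with earlier results of these data known, so lists carry counts and medians and no test. The text names every called gene, up to 30 with the next smallest p (mean of 50 or more, no overlap), and up to 4 members a list by level or p. Other list members were chosen after their values were seen. Marker sums add the normalized counts of each cell type's markers. Gene positions are from GENCODE M21 on the same build, and upstream windows from RefSeq. Of 111 value columns, 91 were not used. The tables were normalized separately. Values of some list members are not reported here, though counts, medians and sums over lists include them.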

Additional observations from a re-analysis of the deposited data

Results flagged for a closer look

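Genes named here that lay wholly on one side of WT in GMPs at 3 w.p.i. and wholly on the other side in untimed GMPs (2 Daxx-KO against 2 WT libraries, 33.1% of genes higher and 34.1% lower without overlap) are given with their log2 fold change in the untimed set. The differences between the sets were not tested. Labels do not give the origin of the untimed set, which may be the transplanted mice. Kcng1 (−2.04), Cnbd2 (−0.799) and Fgf13 (−0.767) were higher at 3 w.p.i. and lower in untimed GMPs. Btg2 (1.74), Klf2 (1.9), Oas1a (0.984), Samhd1 (0.564), Thy1 (1.6) and Vwf (0.67) were lower at 3 w.p.i. and higher in untimed GMPs. Groups of 2 and 3 libraries were too small to look for single outlying libraries by a test.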

How the results depend on the processing

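With another pseudocount (0.5 or 5), no filter or TMM scaling, the 13 calls were the same genes. A mean of 50 or more gave 12 calls, Daxx-KO and WT fitted alone 16, and edgeR 11. DESeq2 called 80 genes, 50 higher and 30 lower. Leaving out each library in turn gave 4 to 11 calls, 2 to 7 higher and 2 to 4 lower: 5 without Daxx-KO Lo22, Lo23 or Lo24 each, 4 without WT Lo80, 9 without WT Lo52 and 11 without WT Lo53, and these fits had 1 library fewer. Daxx, Ryr2, Bcl2l11 and Gm26573 were called in all 14 alternatives, with highest adjusted p of 0.0156, 0.0123, 0.0145 and 0.042. Of 419 values of named genes under alternatives, 44 lost their call, 22 gained one and none changed direction; of 364 list medians 9 moved by more than the spread between replicates. With DESeq2 485 genes had an unadjusted p under 0.05, and with edgeR 441. No paired analysis was possible between Daxx-KO and WT because the GMP columns carry no replicate numbers of the labels. The animal numbers that these columns do carry differ between Daxx-KO and WT. GMPs and KLS cells share animal numbers, and a comparison paired by animal was not made. Depth limits Strc, Gm35572, Zfp951 and Gem, which held few reads in 1 genotype.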
